A study of Rattus norvegicus with 42 samples.

Results

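GR binding in rat liver after 180 min of constant corticosterone (CORT) infusion was described over all 3981 of the 3981 GR regions of the series. No region of that set was left out. Each was compared between the 2 GR ChIP-Seq libraries of the constant infusion at 180 min (CONS_180) and the 2 vehicle libraries (VEH). The authors had built the set from GR peaks, most of them called under CORT, so it favours regions that were high under CORT. The series measured where the glucocorticoid receptor (GR) sat on liver chromatin, where RNA polymerase II was elongating and how much RNA each gene gave, under pulsed and constant delivery of the same hormone dose. All rats were male Sprague Dawley rats without adrenal glands, so that the infusion was their main source of corticosterone, and all were infused intravenously for up to 3 h. The CONS_180 rats received CORT without breaks, for the first 10 min at 1 ml per h to clear air from the lines and then at 0.333 ml per h, and their livers were taken at 180 min. The VEH livers came from rats infused with vehicle in the pulsatile pattern, 1 library from 140 min and 1 from 180 min, so that no vehicle of the constant pattern entered the GR comparison. Each GR library pooled the livers of 6 rats and was made with a cocktail of GR antibodies. The RNA comparison at 180 min was constant CORT against constant vehicle with 3 rats in each group.

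GR is a nuclear receptor that waits in the cytoplasm, enters the nucleus once a glucocorticoid binds it and attaches to DNA at glucocorticoid response elements (GREs), which are imperfect palindromes of paired short sites held 3 bases apart. In liver it is known for switching on genes of gluconeogenesis, amino acid breakdown and feedback control, such as Per1 and Tsc22d3, and for restraining inflammatory genes. Many of its sites lie far from gene starts.

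Depth was 4877662 and 4495077 tags in the CONS_180 libraries, 3236498 and 3902296 tags in the VEH libraries and 4711659 to 7777219 gene reads in the 6 RNA libraries. The deposited GR values are on a log2 scale with a floor: in VEH, the median over all regions was -0.65 in the first library and -0.86 in the second. Fold changes over VEH are therefore fitted values in which the floor has a part, since the VEH mean was below 0 at 2015 of the 2702 raised regions (74.6%). The p-values rest on the spread between 2 pooled libraries a group.

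GRE sequences are shown for 10 regions described below, to let the reader see the element under the strongest and best known sites. Each is 12 bases long. Where several instances were listed for a region (1 to 3 were, among those shown), one with both ACA and TGT was taken first and then the one closest to the GRE consensus. They are read 5′ to 3′ on the strand closest to that consensus, and the capitals mark the letters ACA and TGT that lie 3 bases apart.
AABR07004100.2: ggaACAgcaTGT
Slc45a1: aggACActcTGT
RF00001: gggACAgcaTGT
Got1: tggACAcgcTGT
Nr0b2: agaACActgTGT
Per1: agaACAcgaTGT
Dusp1: tgaACAcagTGT
Arntl: ggaACAgtcTGT
Insig1: agaactgtctgt
Igfbp4: gggacagggagt
The first 3 belong to regions among the 5 highest CONS_180 levels. The instances of the Insig1 and Igfbp4 regions held no ACA and TGT at that spacing. Of the 13 regions named below that had an instance in the part of the list held here, 11 had one with both ACA and TGT at that spacing. The instances were matches to the study's own GRE motif and those with both were taken first, so this count was largely set beforehand.

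GR binding was higher after constant CORT at most regions of this set. Of 3981 regions, 2702 (67.9%) were raised over VEH and 12 (0.301%) were lowered (limma, Benjamini-Hochberg adjusted p below 0.05 and more than 1.5-fold). Among the raised regions the median log2 fold change was 4.13, with quartiles of 3.38 and 4.85 and a median standard error of 0.81. The median level of the raised regions was 3.79 and 3.71 in the CONS_180 libraries and -0.69 and -0.87 in VEH. The CONS_180 values lay above both VEH values at 3328 regions (83.6%), below both at 103, and overlapped them at 550. Both CONS_180 libraries ranked the regions alike, with a Spearman correlation of 0.81 across all regions, which share libraries and are not independent. Their median difference at a region was 0.58 on the log2 scale, against 0.19 between the VEH libraries, most of whose values sat near the floor.

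**Figure D1:**
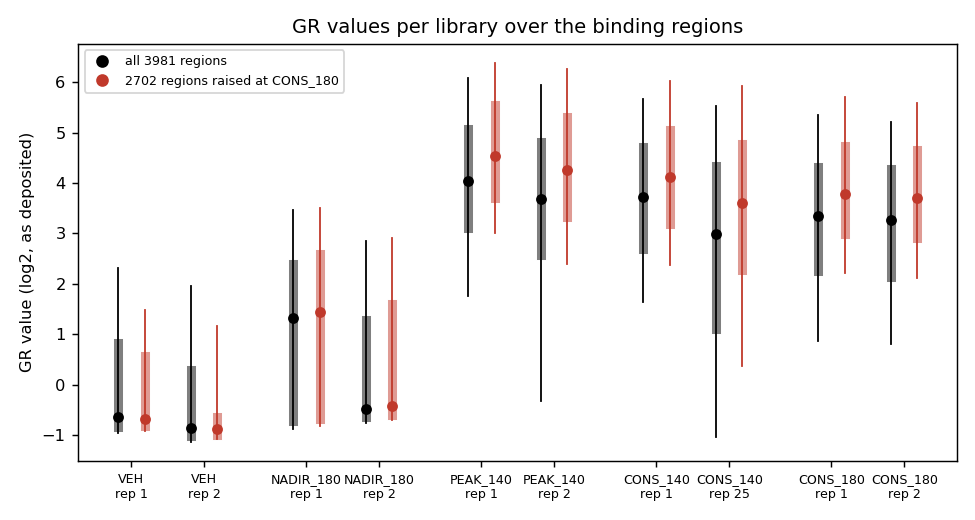
GR level (log2) in each of the 10 GR libraries over all 3981 regions and over the 2702 regions raised at CONS_180. Thin lines run from the 10% to the 90% point, thick bars from the 25% to the 75% point and dots mark the median, which for raised regions was 3.79 and 3.71 at CONS_180 and -0.69 and -0.87 in VEH.

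The count of raised regions depended on how the libraries were scaled. Library medians of CONS_180 lay 4.06 log2 units above those of VEH. With library medians set equal, 57 regions were raised and 270 lowered, and after quantile normalization 417 were raised and 402 lowered. These fits ask which regions rose more or less than the typical region. Leaving out 1 of the 4 libraries at a time left 2001 to 2268 regions raised, and 1788 of the 2702 were raised in each of the 4 fits.

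The largest rises were at distal sites. The largest of all was intergenic, at chr2:141792853-141793478 of rn6, 70.7 kb from the start of AABR07010589.1, an Ensembl gene model with a clone name. Its values were -0.08 and -0.29 in VEH and 7.52 and 7.58 at CONS_180, a log2 fold change of 7.73 ± 0.28 (SE; limma adjusted p = 2.86e-06). The libraries within each group differed by far less than the groups did.

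Among the 10 largest rises, 2 lay upstream of Lpin1, which encodes a phosphatidate phosphatase of triglyceride synthesis that also acts as a transcriptional coactivator. At chr6:41890042-41890667, 20.3 kb from the start, VEH was -0.20 and -0.41 and CONS_180 was 7.23 and 7.11, a log2 fold change of 7.48 ± 0.38. At chr6:41884400-41885025, 14.7 kb from the start, VEH was -0.27 and -0.48 and CONS_180 was 6.78 and 7.04, a log2 fold change of 7.29 ± 0.55. Both sites were at the VEH floor and close to the top of the CONS_180 range. Distances follow the deposited annotation. The paper places its GR sites of Lpin1 farther upstream of the start, and whether they are the same sites was not tested.

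Metabolic and classical GR genes were also near the largest rises. The region 17.8 kb upstream of Ppp1r3c, a subunit that directs protein phosphatase to glycogen, was at chr1:255394304-255394929 with -0.31 and -0.52 in VEH and 6.80 and 7.13 at CONS_180. The region in intron 3 of 6 of Zbtb16, a zinc finger factor induced by glucocorticoids in many tissues, was at chr8:53055202-53055827 with -0.21 and 0.64 in VEH and 7.39 and 7.46 at CONS_180. Their log2 fold changes were 7.38 ± 0.97 and 7.21 ± 0.94. The larger errors went with uneven NADIR_180 libraries at these regions, since the fit shares 1 spread over all 5 groups: NADIR_180 was 3.64 and -0.05 at the Ppp1r3c region and 3.65 and 0.06 at the Zbtb16 region.

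The other 5 of the 10 largest rises had log2 fold changes of 7.12 to 7.51. They lay nearest Armc12, AABR07026037.1, Asip (a melanocortin receptor antagonist), RF00619 (a model named by its Rfam family) and Cd180 (a receptor of B cells and macrophages). The Cd180 region at chr2:32738183-32738808 lay 81.8 kb from the start and read -0.44 and -0.64 in VEH and 6.82 and 6.33 at CONS_180. Of the 10, 9 were intergenic and the Zbtb16 region was intronic.

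**Figure D2:**
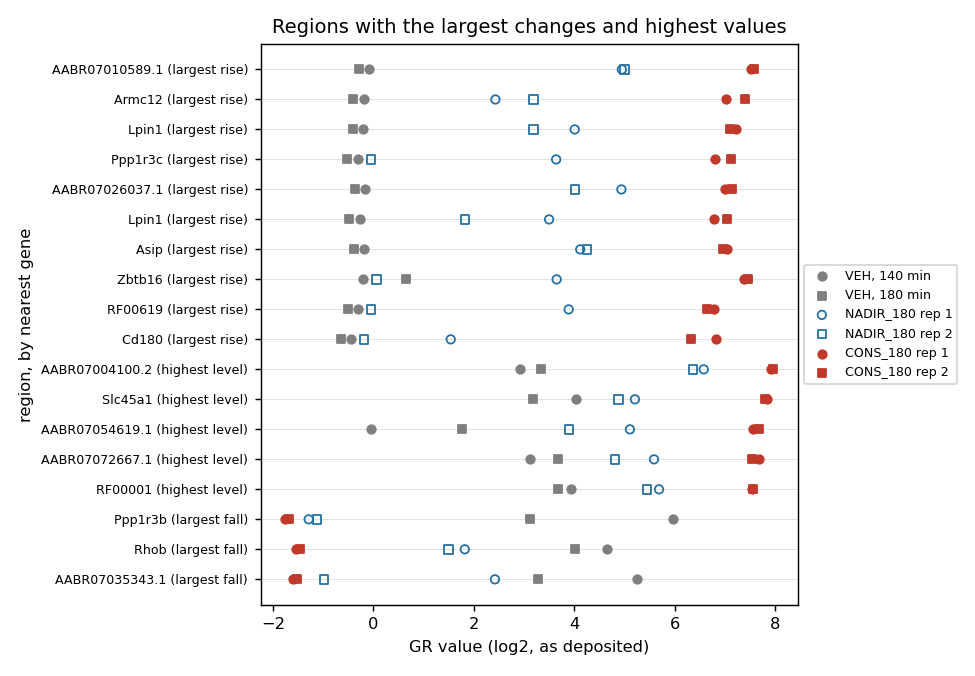
GR level (log2) at the named sites in each VEH, NADIR_180 and CONS_180 library, 1 point a library. At the 10 largest rises the CONS_180 points lie between 6.33 and 7.58 and the VEH points between -0.64 and 0.64, while at the 3 largest falls the VEH points lie above 3 and the CONS_180 points below -1.

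The 5 highest CONS_180 levels lay outside the 10 largest rises, and at 4 of the 5 both VEH libraries were above 2. The highest was at chr1:124775856-124776481 nearest AABR07004100.2, with 2.92 and 3.33 in VEH and 7.92 and 7.97 at CONS_180 and a log2 fold change of 4.82 ± 0.22. The region 34.4 kb upstream of Slc45a1, a sugar transporter gene, read 4.04 and 3.18 in VEH and 7.85 and 7.80 at CONS_180. Both carry a GRE instance printed above. The remaining 3 of the 5 highest lay nearest AABR07054619.1, AABR07072667.1 and RF00001, with log2 fold changes of 6.76, 4.23 and 3.74. The AABR07054619.1 region was the exception in VEH, with -0.05 and 1.77 against 7.57 and 7.68 at CONS_180. With libraries centred on their medians the RF00001 region reversed to -0.32, and those of AABR07004100.2, Slc45a1 and AABR07072667.1 were no longer called. Over the raised regions, VEH means above 2 were found at 85.

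The 12 lowered regions read above the floor in VEH and mostly at it at CONS_180. The largest fall was in intron 1 of 1 of Ppp1r3b, the glycogen-targeting subunit of liver, at chr16:60425061-60425588, with 5.97 and 3.12 in VEH and -1.76 and -1.68 at CONS_180, a log2 change of -6.27 ± 2.20 (limma adjusted p = 0.0312). The next were at the promoter of Rhob, a small GTPase gene, with 4.66 and 4.02 in VEH against -1.55 and -1.47, and nearest AABR07035343.1, with 5.26 and 3.27 against -1.61 and -1.53. At these 3 regions 1 CONS_140 library was as high as VEH or higher (6.84, 6.54 and 4.80) while the other was at the floor (-1.48, -1.27 and -1.34), so that libraries of 1 group fell on either side.

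The other 9 lowered regions lay nearest Pkp3, Rcan1, AABR07043776.1, Pdk4, Mir3591, Fgg, Hmgcs1, Slc38a3 and Pml, with log2 changes from -5.00 to -1.88. The Ppp1r3b and AABR07035343.1 calls were lost without VEH replicate 1 or either CONS_180 library (limma adjusted p of 0.0806 to 0.16), and the Rhob call without any 1 of the 4 libraries (0.078 to 0.103). Each of the other 9 lost its call in at least 1 of the 4 leave-one-out fits. Lowered regions were narrow, with a median width of 150 b against 626 b for raised regions, and 10 of the 12 overlapped a peak called in VEH and 0 a peak called at CONS_180.

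The 1267 regions that were not called were less certain, not flat. Their median log2 difference was 1.35 with a median standard error of 1.15, and CONS_180 was the higher group at 1066 of them. At 926 the difference was more than 1.5-fold with an adjusted p above the threshold. Just inside the threshold lay the region nearest Slc25a47, with a log2 fold change of 4.32 and an adjusted p of 0.0499 from limma. Just outside lay the region nearest Srsf4, with 2.14 and 0.05.

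Regions were built from peaks that the authors called in each group, CONS_180 included, so that a CONS_180 peak and a high CONS_180 value are not independent. Peaks of PEAK_140 were found at 3209 regions and those of CONS_180 at 2428, against 116 for VEH and 72 for NADIR_180. The shares raised and lowered over VEH therefore depend on how the set was built. Of 2428 regions with a CONS_180 peak, 86.8% were raised, and 2108 of the 2702 raised regions (78.0%) had one. The 594 raised regions without a CONS_180 peak had a median level of 2.37, against 4.05 for those with one, and 548 of them overlapped a peak of the pulse (PEAK_140). The 304 regions whose sole peak was that of CONS_180 had median levels of 3.00 at CONS_180, 2.16 at PEAK_140, 2.24 at CONS_140, 0.38 at NADIR_180 and -0.77 in VEH. These regions were chosen by that peak, so their levels are a description. Sites called at CONS_180 alone also carried signal in the pulse-peak and earlier constant libraries.

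Most raised regions lay away from promoters. Of the 2702, 1360 were intergenic and 1060 intronic by the authors' annotation, 169 were at promoters, 59 in exons and 54 at transcript ends (TTS). The raised share was 70.9% of 1918 intergenic and 69.1% of 1534 intronic regions, against 50.8% of 333 promoter regions. CONS_180 levels were alike in these classes, with medians of 3.37, 3.18 and 3.28. VEH differed more, with a median of -0.03 at promoters against -0.59 in intergenic and -0.66 in intronic regions. The median log2 fold change was accordingly 2.88 at promoters and 3.61 between genes. Exonic regions were raised at 54.6% of 108 and TTS regions at 61.4% of 88.

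Distance to the nearest gene start gave the same order. Within 1 kb of a start 49.4% of 474 regions were raised, from 10 to 50 kb 72.4% of 1531, and beyond 100 kb 67.0% of 309. The median distance was 15.8 kb for raised regions and 10.6 kb for the rest, and 46.6% of raised regions lay upstream of the start. Of the raised regions, 733 (27.1%) had another within 10 kb, and the median distance to the nearer neighbouring raised region was 55.9 kb. Spacing was not measured over all regions, so it is not shown to be particular to raised ones.

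**Figure D3:**
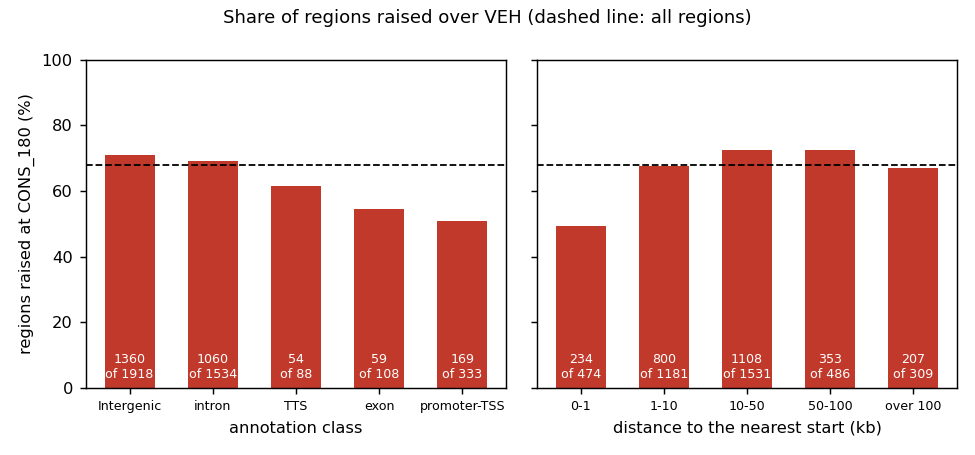
Percent of regions raised at CONS_180 over VEH by annotation class (left) and by distance to the nearest gene start in kb (right), with the number raised of the number of regions on each bar. The dashed line is the share over all regions, 67.9%, and the bars for promoters (50.8%) and for 0 to 1 kb (49.4%) are the lowest.

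Among repeat classes with 19 or more regions, the raised share was low in simple repeats and satellites. Regions centred on LTR, SINE and LINE elements were raised at 70.1%, 70.5% and 70.3%, near the 68.4% of regions with no repeat at the centre. Regions centred on simple repeats were raised at 10 of 44, with a VEH median of 2.04. None of the 19 regions centred on satellite repeats was raised. Their medians were 3.6 and 3.6 in VEH, 3.44 and 3.49 at CONS_180 and 2.68 in the CONS_140 library labelled replicate 25, against -1.64 in CONS_140 replicate 1 and -0.54 to -0.91 at PEAK_140 and NADIR_180. What sets these libraries apart at satellites was not tested. Without the satellite regions 2706 regions were raised, so they decide little of the count.

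Promoter sequence is shown where the GR region covered the whole window, for the 3 promoters with the highest CONS_180 level among the 66 raised promoter regions that matched a RefSeq promoter by symbol and covered it. Each line is the 250 bases before the gene start from RefSeq on GRCr8, 5′ to 3′ on the gene's strand. Capitals mark the letters of ACANNNTGT, the GRE letters at their spacing, which reads the same on either strand, and no promoter shown held AGAACA or its reverse complement TGTTCT. The GR regions are on rn6, so start sites of the builds were matched by gene name and not by coordinate.
Apof (chr7:1284972-1285221, plus strand): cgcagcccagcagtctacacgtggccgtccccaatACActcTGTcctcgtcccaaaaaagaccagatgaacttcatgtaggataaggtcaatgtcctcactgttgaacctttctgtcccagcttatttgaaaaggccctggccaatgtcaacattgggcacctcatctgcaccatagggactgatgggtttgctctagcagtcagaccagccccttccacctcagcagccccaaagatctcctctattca
Fga (chr2:170671919-170672168, plus strand): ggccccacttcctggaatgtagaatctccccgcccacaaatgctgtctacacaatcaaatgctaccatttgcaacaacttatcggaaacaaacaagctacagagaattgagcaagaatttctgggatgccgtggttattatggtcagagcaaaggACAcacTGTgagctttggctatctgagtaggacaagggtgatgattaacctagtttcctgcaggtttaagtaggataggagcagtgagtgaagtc
Kng1 (chr11:91340149-91340398, minus strand): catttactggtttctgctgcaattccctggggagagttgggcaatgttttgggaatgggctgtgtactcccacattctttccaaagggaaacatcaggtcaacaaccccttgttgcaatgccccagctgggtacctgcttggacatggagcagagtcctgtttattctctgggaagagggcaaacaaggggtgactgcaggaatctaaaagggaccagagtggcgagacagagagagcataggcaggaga
All 3 genes encode plasma proteins: apolipoprotein F, the fibrinogen alpha chain and kininogen. GR at the Fga promoter read -0.53 and -0.73 in VEH and 6.06 and 5.35 at CONS_180. At Apof it read 2.00 and 3.15 against 5.89 and 6.12, and at Kng1 -0.26 and 1.73 against 5.68 and 5.59. None of the 3 had a called RNA change, with RNA log2 fold changes of -0.44, -0.05 and -1.41 (edgeR adjusted p = 0.226, 0.868 and 0.0833). Vehicle rat 2 stood apart at Kng1, with CPM (gene counts scaled to library size) of 1470, 12200 and 2360 with vehicle. With CORT the Kng1 values were 2160, 2050 and 1830 CPM.

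Of the 169 raised promoter regions, 111 matched a RefSeq promoter by gene name. ACANNNTGT was present in 17 of these 111 windows (15.3%) and in 5.62% of all 27457 promoters of the same length. AGAACA, a single arm of the palindrome searched on both strands, which can overlap the first motif, was in 15 (13.5%) against 17.1% of all. A match marks letters in the window and not a bound site.

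Against the pulsatile infusion at the same 180 min, when the pulse had ended (NADIR_180), CONS_180 was higher at 1976 regions (49.6%) and lower at 0. Of these, 1868 were regions raised over VEH, as were 67.9% of all regions. Both comparisons used the same CONS_180 libraries, so this overlap was partly built in. The largest differences were in intron 5 of 31 of Nedd4l, a ubiquitin ligase of sodium channels, nearest AABR07010587.1, and in an intron of Tpm4, a tropomyosin. At the Nedd4l region, chr18:60595151-60595776, NADIR_180 was -0.41 and -0.24 and CONS_180 was 6.06 and 6.52, a log2 difference of 6.61 ± 0.45. The other differences were 6.50 and 6.24. This comparison too depended on scaling: library medians differed by 2.88, 0 regions were called with centred libraries and 95 higher and 74 lower after quantile normalization. The count was 949 without CONS_180 replicate 1, 1053 without CONS_180 replicate 2 and 1238 without NADIR_180 replicate 2. Of the 19 satellite regions 14 were called higher than at NADIR_180, and without them 1960 regions were.

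Differences from NADIR_180 were rarer at promoters, where 27.9% of regions were higher at CONS_180, against 52.1% of intergenic and 52.2% of intronic regions. At the Per1 region at chr10:55683421-55684046, the NADIR_180 mean was 5.52, with 6.83 and 6.61 at CONS_180 and 2.38 and 3.17 in VEH. The Zbtb16 and Nfkbia regions lay lower at NADIR_180, with means of 1.85 and 1.09. Strong CONS_180 sites thus differed in how much signal remained at the pulse nadir.

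No region passed the test between CONS_180 and CONS_140 (0% higher; 194 regions at an unadjusted limma p below 0.05), nor between CONS_180 and PEAK_140 (0%; 486 regions unadjusted). Over the 2702 raised regions the median log2 difference was -0.13 from CONS_140 and -0.66 from PEAK_140, and CONS_180 was the higher group at 18.1% in the latter. Library medians lay 0.56 lower at CONS_180 than at PEAK_140, and over all regions the median difference of -0.67 became -0.11 with library medians set equal and -0.06 after quantile normalization. Without CONS_140 replicate 25, 57 regions were called between CONS_180 and CONS_140, 40 higher and 17 lower. With 2 libraries a group, a missed threshold does not show equal binding. The CONS_180 list shared 2008 regions with that of PEAK_140, 82.7% of the CONS_180 list and 62.6% of the other, and 1362 with that of CONS_140, 56.1% and 79.0%.

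Genes nearest a raised GR region had raised RNA at a higher share than other genes. Constant CORT raised 627 of 14092 genes tested (4.45%) and lowered 670 (4.75%) at 180 min (edgeR quasi-likelihood test, Benjamini-Hochberg adjusted p below 0.05 and more than 1.5-fold). Of the 1376 tested genes nearest a raised region, 272 were raised (19.8%, 95% Clopper-Pearson interval 17.7 to 22) and 96 lowered (6.98%, 5.69 to 8.45). Of 473 genes nearest regions none of which was raised, 6.55% were raised and 9.09% lowered, and of 12243 genes nearest no region 2.65% and 4.34%. Median vehicle CPM (gene counts scaled to library size) was 37.4, 34.1 and 9.52 in these sets, so genes near regions gave more reads, and the part of read depth in the calls was not tested. Intervals cover counting error over genes only, and genes share libraries. In bulk liver, fewer cells of a type and less RNA per cell cannot be told apart.

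Seen from the RNA, 272 of 627 raised genes (43.4%) and 96 of 670 lowered genes (14.3%) were nearest a raised region, against 9.76% of all genes tested. The nearest gene is the authors' assignment by position. Among nearest genes of raised regions, 610 were not in the RNA test.

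The raised share grew with the number of raised regions per gene. It was 15.4% of 1035 genes with 1 raised region, 29.4% of 221 with 2, 38.0% of 79 with 3 and 43.9% of 41 with 4 or more. The lowered share was 7.83%, 4.98%, 5.06% and 0% in that order. It also grew with the highest CONS_180 level near the gene, from 8.15% for genes with levels of 0.75 to 3.09 to 35.4% for those with 4.83 to 7.94, while the lowered share was 9.09% and 2.81%. Number and level are linked, since a gene with more regions has more chances of a high one.

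Closeness went with a raised share too. It was 24.4% where the closest raised region lay within 1 kb of the start, 22.8% at 1 to 10 kb, 18.3% at 10 to 50 kb and 9.82% at 50 to 100 kb. The 58 genes beyond 100 kb gave 10.3% with an interval of 3.89 to 21.2. Genes with a raised region that was also higher than at NADIR_180 were raised at 23.6% of 1000, against 9.57% of 376 genes without one. A call above NADIR_180 depends in part on the CONS_180 level, with which the raised share also grew. The part of each was not tested.

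**Figure D4:**
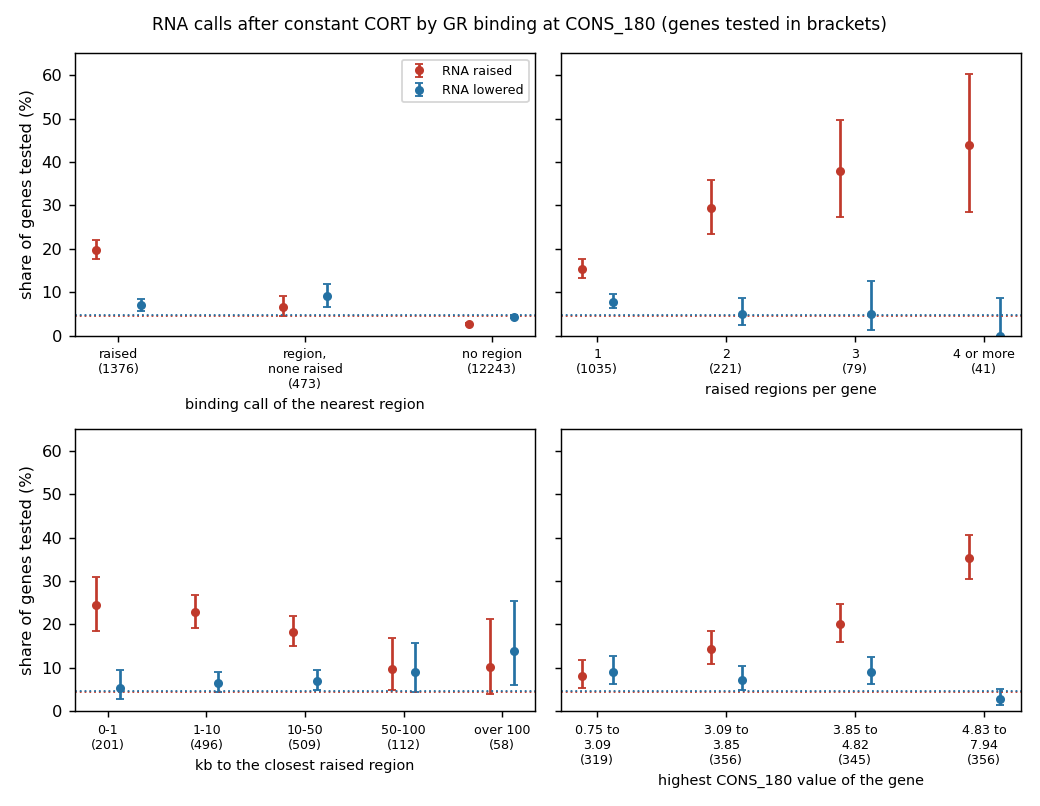
Percent of genes with raised or lowered RNA after constant CORT, by whether the gene was nearest a raised region, by its number of raised regions, by the highest CONS_180 level near it and by the distance in kb from its start to the closest raised region. Lines are 95% Clopper-Pearson intervals and dotted lines the shares over all genes tested, 4.45% raised and 4.75% lowered; the raised share reaches 43.9% with 4 or more raised regions.

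Of the 1986 nearest genes of raised regions, 1530 had 1 such region, 304 had 2, 99 had 3 and 53 had 4 or more. The most, 10, lay nearest AABR07027072.1, whose RNA was 0.855, 1.10 and 0.543 CPM with vehicle and 21.1, 32.1 and 18.6 CPM with CORT, a log2 fold change of 4.84 ± 0.30 (edgeR adjusted p = 4.56e-08). Zbtb16 had 9 raised regions, 11.5 to 91.4 kb from its start, and rose from 80.9, 35.0 and 45.8 CPM to 651, 589 and 540 CPM. Tsku, a secreted leucine-rich repeat protein, had 6, and rose by 2.84 ± 0.47 on the log2 scale. Egfr, the epidermal growth factor receptor, had 7 and a log2 fold change of 0.87 ± 0.18. In these genes the CORT and vehicle values did not overlap.

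Many raised regions did not go with a called RNA change. Alb, serum albumin, also had 9 raised regions, of which the highest, at chr14:19222543-19223200, read -0.31 and -0.52 in VEH and 6.26 and 6.54 at CONS_180. Its RNA was 79300, 73500 and 115000 CPM with vehicle and 107000, 107000 and 114000 CPM with CORT. These values overlap, with a log2 fold change of 0.29 ± 0.16 (edgeR adjusted p = 0.288). Slc45a1 and AABR07054619.1, with 8 raised regions each, and AABR07010589.1, with 6, were not in the RNA test. AABR07072667.1 and AABR07058158.1, with 7 each, had RNA log2 differences of 1.21 ± 0.93 and 0.34 ± 0.20 that were not called.

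The RNA rises nearest raised regions included genes that were almost silent with vehicle. AABR07015559.1 went from 0, 0.220 and 0.181 CPM to 34.5, 25.3 and 33.3 CPM, and its strongest region lay 48.0 kb upstream with 5.23 and 4.37 at CONS_180. Nyap2 had 0 counts in all 3 vehicle libraries and 3.66, 1.97 and 3.04 CPM with CORT, at least 17.1-fold higher against a floor of 3 counts over the vehicle group. Serpina12, the adipokine vaspin, also had 0 vehicle counts and 0.609, 0.282 and 0.358 CPM with CORT, at least 2.44-fold higher, but its call (edgeR adjusted p = 0.0441) was lost in 9 alternatives, among them each fit without 1 of the 6 constant-infusion libraries (adjusted p of 0.0619 to 0.118). Slc12a3, a sodium chloride cotransporter, had a log2 fold change of 4.20 ± 0.78 at a mean of 4.58 CPM with CORT. AABR07044148.1 and AABR07058656.1, at means of 5.95 and 1.68 CPM with CORT, had 4.98 ± 0.69 and 4.44 ± 0.77.

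Large rises at better expressed genes included metabolic ones. Lpin1, with 3 raised regions, rose from 88.9, 99.8 and 70.8 CPM to 985, 2150 and 1840 CPM, a log2 fold change of 4.26 ± 0.26. Sds, serine dehydratase, rose from 19.8, 47.8 and 66.4 CPM to 532, 875 and 887 CPM, and its raised region 2.02 kb from the start was modest, with 1.72 and 2.54 at CONS_180 against -1.05 and -1.20 in VEH. Noct, a rhythmic phosphatase, rose from 1.34, 1.76 and 0.362 CPM to 8.12, 32.1 and 17.2 CPM. The groups did not overlap in these genes.

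Raised GR regions also lay nearest genes whose RNA fell. Scd, stearoyl-CoA desaturase of fatty acid synthesis, fell from 202, 352 and 1290 CPM to 19.5, 21.3 and 91.3 CPM, with 5.08 and 4.96 at CONS_180 at a region at its transcript end (-0.57 and -0.77 in VEH). Cxcl1, a neutrophil chemokine, fell from 5.13, 12.1 and 6.70 CPM to 1.22, 0 and 0.896 CPM, with a promoter region at 2.78 and 1.72 against -0.88 and -1.05. Inhba, the activin beta A chain, fell from 33.3, 24.9 and 18.1 CPM to 2.44, 4.22 and 0.716 CPM, and its raised region lay 198 kb from its start. That region read 3.16 and 1.25 at CONS_180 against -1.06 and -1.23 in VEH (limma adjusted p = 0.0204). The RNA groups did not overlap in Scd, Cxcl1 or Inhba.

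The other falls among the 10 largest were at Arrdc3, an arrestin-domain protein, with a log2 change of -2.36 ± 0.25, and at Nrep, Dnajc5b, LOC103692869, AABR07066820.1, AABR07068043.1 and AABR07068044.1, with -2.14 to -3.62. Of these, some calls were lost when 1 rat was left out (edgeR): AABR07066820.1 without CORT rat 3 or vehicle rat 1 (adjusted p = 0.0564 and 0.0838), LOC103692869 without CORT rat 1 or 2 or vehicle rat 3 (0.0665 to 0.0809) and Dnajc5b without CORT rat 1 or 3 or vehicle rat 1 or 2 (0.0568 to 0.0801). The Cxcl1 fall was lost without CORT rat 2 (0.0628). GR calls were near the threshold at the Dnajc5b and AABR07066820.1 regions (limma adjusted p = 0.0476 and 0.0302). At the highest regions of the other genes named in this paragraph besides Cxcl1 it was 0.000183 to 0.0126.

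Near the 12 lowered regions, 9 nearest genes were in the RNA test and 4 of them were lowered, against 4.75% of all genes tested and 9.09% of genes nearest regions none of which was raised. These were Pdk4, which restrains pyruvate oxidation, with an RNA log2 change of -1.22 ± 0.26, Hmgcs1, of cholesterol synthesis, with -1.74 ± 0.30, Rcan1, a calcineurin regulator, with -0.83 ± 0.20, and AABR07035343.1 with -1.82 ± 0.24. The Rcan1 call was lost without CORT rat 1, at -0.66 (edgeR adjusted p = 0.0536). Ppp1r3b, at the largest fall, had 0.31 ± 0.40.

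Gene lists were read by role. Lists and members were chosen with earlier results of these data known, so their shares describe the listed genes and do not test a pathway. For comparison, 9.76% of all genes tested in RNA were nearest a raised region. The share was 43.4% among all RNA-raised genes and 14.3% among all RNA-lowered genes. Of the 31 raised regions named for them, 29 were called in each of the 4 leave-one-out fits, while 21 were not called with libraries centred on their medians. Among 15 feedback and classical GR targets, 12 had a raised region, 35 regions in all, and 9 of 13 genes tested in RNA rose and 2 fell, against 4.45% and 4.75% over all genes. All 9 had a raised region. The 2 that fell were Sgk1 and Lcn2. Sgk1 changed by -1.18 ± 0.37 (edgeR adjusted p = 0.0486). Its raised promoter region read 1.94 and 0.56 in VEH and 3.80 and 3.98 at CONS_180. Lcn2 had no GR region nearest it, and its vehicle values were uneven. They were 1.22, 139 and 1.81 CPM, against 0.609, 0.985 and 0.537 CPM with CORT. The Mt2A region, near a metallothionein that binds metals, was at chr19:11309691-11310316 with 2.90 and 2.13 in VEH and 7.06 and 6.70 at CONS_180, and its RNA went from 43.1, 179 and 56.5 CPM to 519, 357 and 565 CPM. Klf9, a transcription factor, had 3.94 and 2.83 in VEH and 6.97 and 6.59 at CONS_180, and RNA of 23.2, 18.3 and 17.4 CPM against 87.7, 76.7 and 76.8 CPM. Per1, a clock repressor, rose in RNA by 3.12 ± 0.27. The Mt2A call was lost without CORT rat 1 or 3 or vehicle rat 1 or 3 (edgeR adjusted p of 0.0757 to 0.135). At the Mt2A, Klf9 and Per1 regions VEH was not at the floor, unlike at Zbtb16.

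Most of the listed amino acid breakdown and urea cycle genes rose in RNA and had a raised GR region nearby. Of 22 genes, 18 had a raised region (9.76% over all genes tested). In RNA, 15 of 21 tested rose and 0 fell (4.45% and 4.75% over all genes), with a median log2 fold change of 1.02 against -0.01 over all genes. All 15 that rose had a raised region, as did 43.4% of all RNA-raised genes. The promoter region of Got1, aspartate aminotransferase, at chr1:263269863-263270488 read 3.43 and 3.17 in VEH and 7.16 and 7.35 at CONS_180, and its RNA rose from 92.5, 85.1 and 128 CPM to 791, 1060 and 977 CPM. Etnppl, which breaks down phosphoethanolamine, rose by 3.62 ± 0.17 with -0.41 and -0.62 against 5.77 and 5.70 at an intronic region. Cps1, the entry enzyme of the urea cycle, rose by 1.18 ± 0.14 and Slc7a2, a cationic amino acid transporter, by 1.74 ± 0.19.

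Of 19 genes of gluconeogenesis and glucose handling, 10 had a raised region (9.76% over all genes tested). In RNA, 8 of 18 tested rose and 1 fell, against 4.45% and 4.75% over all genes. A raised region lay nearest 5 of the 8. The other 3 had no GR region nearest them: Ppargc1a, a coactivator of gluconeogenesis, with 2.93 ± 0.21, Foxo1, a transcription factor restrained by insulin, with 1.82 ± 0.18, and Irs2, an insulin receptor substrate, with 1.02 ± 0.32 (edgeR adjusted p = 0.0478). Pck1, which commits to gluconeogenesis, had a promoter region at chr3:171213210-171213872 with 2.85 and 1.72 in VEH and 5.76 and 5.71 at CONS_180. Its RNA rose from 1740, 1460 and 2130 CPM to 3200, 3420 and 3380 CPM, a log2 fold change of 0.91 ± 0.17. The GR call at this region was lost without VEH replicate 2 or either CONS_180 library, where the log2 fold change stayed at 2.88 or more. Foxo3, a transcription factor of fasting, rose by 1.19 ± 0.25 and Ppp1r3c by 1.66 ± 0.33. Ppp1r3b had a raised region far upstream, at chr16:60595238-60595869, as well as the lowered one in its intron, and no called RNA change.

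More of the listed lipid and sterol genes fell than rose in RNA. Of 29 genes, 13 had a raised region (9.76% over all genes tested). In RNA, of 26 tested 3 rose and 13 fell (4.45% and 4.75% over all genes), with a median log2 change of -0.81. The 3 that rose all had a raised region, as did 7 of the 13 that fell. They were Lpin1, Insig1, which holds back sterol synthesis, with 1.35 ± 0.42, and Cpt1a, which admits fatty acids to mitochondria, with 1.12 ± 0.19. The Insig1 call was lost when any 1 of the 6 rats but vehicle rat 2 was left out (edgeR adjusted p of 0.0671 to 0.174). The Insig1 region at chr4:319284-319909 read 1.93 and 0.53 in VEH and 5.58 and 6.09 at CONS_180. Raised GR binding therefore stood near genes of both RNA directions within 1 list.

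Of 15 anti-inflammatory and cytokine receptor genes, 10 had a raised region (9.76% over all genes tested). In RNA, 7 of 14 tested rose and 1 fell, against 4.45% and 4.75% over all genes. All 7 had a raised region. Nfkbia, the NF-kappa-B inhibitor, had an intronic region at chr6:76269501-76270126 with -0.46 and -0.66 in VEH and 6.32 and 6.45 at CONS_180, and RNA of 18.6, 21.4 and 18.1 CPM against 58.7, 37.9 and 45.0 CPM. Zfp36, which destabilises cytokine mRNAs, rose by 2.52 ± 0.32, Il6r, the interleukin-6 receptor, by 1.72 ± 0.16, and Dusp1, a MAP kinase phosphatase, by 1.23 ± 0.27. At the Dusp1 region VEH was uneven, with 2.59 and -0.66, and the GR call was lost without VEH replicate 2, at 2.60, or either CONS_180 library.

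**Figure D5:**
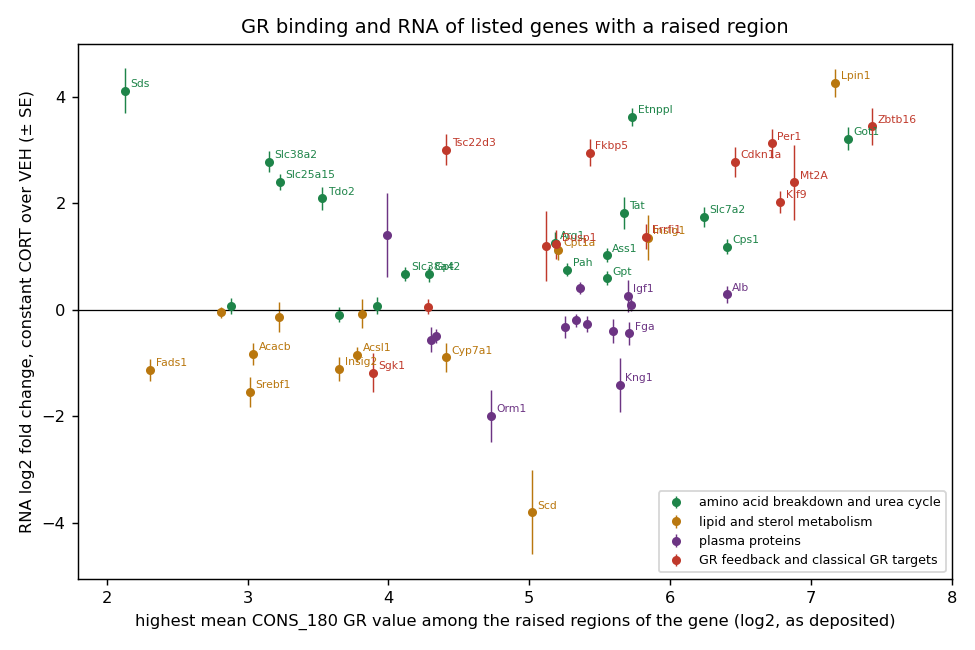
RNA log2 fold change with its standard error (y) against the highest mean CONS_180 GR level among the raised regions of the gene (x, log2), for members of 4 gene lists that had a raised region. Zbtb16 and Got1 lie high on both axes, Alb at 0.29 on y despite a high GR level, and Scd lowest on y at -3.80.

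Most of the listed plasma protein genes had a raised region, while their RNA calls were near the share over all genes. Of 20, 14 had a raised region (9.76% over all genes tested), 38 regions in all. In RNA, of 17 tested 0 rose and 1 fell, with a median log2 fold change of -0.32. These RNA counts are near the shares over all genes, 4.45% raised and 4.75% lowered. Orm1 was the 1 that fell, from 800, 5230 and 1240 CPM with vehicle to 534, 673 and 623 CPM with CORT. Vehicle rat 2 was also the highest at Hp, with 4410, 11300 and 5980 CPM, and at Kng1, though not at Alb. The part of that rat in these values was not tested. Fga had 3170, 6740 and 4780 CPM with vehicle and 3820, 3000 and 4000 CPM with CORT. Igf1, insulin-like growth factor, had -0.58 and -0.77 in VEH and 6.14 and 5.25 at CONS_180 at an intronic region, and an RNA log2 fold change of 0.26 ± 0.30. Igfbp4, which binds that factor, had 0.09 ± 0.11.

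Of 19 clock genes, 9 had a raised region (9.76% over all genes tested). In RNA, 2 of 17 tested rose and 3 fell, against 4.45% and 4.75% over all genes. Both that rose and none of the 3 that fell had a raised region. Arntl, the positive clock factor, had a region at chr1:178069553-178070178 with 1.98 and 2.08 in VEH and 5.08 and 4.88 at CONS_180, and RNA of 109, 81.1 and 93.4 CPM against 75.1, 104 and 92.2 CPM. Bhlhe40 and Hlf had RNA log2 differences of -0.82 ± 0.34 and 0.64 ± 0.28 that were not called. Of 23 hepatocyte transcription factors and nuclear receptors, 12 had a raised region (9.76% over all genes tested). In RNA, 5 of 20 tested rose and 0 fell, against 4.45% and 4.75% over all genes. A raised region lay nearest 4 of the 5, and Ahr, the aryl hydrocarbon receptor, rose by 0.61 ± 0.15 with no GR region nearest it. Nr1i2, the xenobiotic receptor PXR, rose by 1.62 ± 0.14, and its intronic region at chr11:65028330-65028955 read -0.26 and -0.47 against 6.31 and 6.63. Nr0b2, a corepressor of bile acid synthesis, rose by 1.39 ± 0.42, a call lost without CORT rat 1 or 3 or vehicle rat 1 or 3 (edgeR adjusted p of 0.09 to 0.192), while Rxra, the shared partner receptor, had 0.57 ± 0.15, under the fold threshold. Cebpa was not in the RNA test.

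The liver label was checked in the RNA. Summed hepatocyte markers were 136000 to 182000 CPM with vehicle and 162000 to 176000 CPM with CORT, with 1 of 6 (Cps1) raised. Of markers of other cells, Kupffer cell markers summed to 310 to 558 and 353 to 400 CPM, endothelial to 241 to 304 and 261 to 319, lymphocyte to 49.0 to 75.6 and 36.5 to 51.2, cholangiocyte to 9.77 to 18.3 and 10.6 to 13.1 with 1 of 5 at 0, and stellate cell to 197 to 211 and 143 to 175 CPM. In these, 1 marker, Dcn, was called, as raised. Adrenal cortex markers summed to 2.53 to 3.97 CPM with vehicle and 6.27 to 11.6 CPM with CORT, with Cyp17a1 raised. The part of cell makeup in the RNA results was not tested.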

How the data were processed

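GR ChIP-Seq libraries were pools of liver from 6 rats, and RNA-Seq libraries came from 3 rats a group. The authors trimmed ChIP reads (Trimmomatic 0.36), aligned them to rn6, called peaks over input with HOMER 4.9.1 and merged the peaks of the groups into regions. The deposited GR values per region and library are not whole and go below 0, and were read as log2 values. The methods describe normalization to tags within binding regions after input subtraction, yet library medians differ. The authors deposited raw RNA counts per Ensembl gene (featureCounts 1.6.2 in the submitters' notes). The aligner used for RNA is given only by tool name (STAR) and the strand setting of the counting is not given in the sources used here, so overlapping and antisense genes are uncertain. Columns of the authors' own fold changes and p-values were not used.

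GR values entered limma 3.58.1 (R 4.3.3), 1 fit over all 10 GR libraries with a variance trend, and the 2 VEH libraries formed 1 group. RNA counts of genes with more than 10 reads over 12 libraries were compared with edgeR 4.0.16 (TMM, quasi-likelihood). Calls needed an adjusted p below 0.05 and more than 1.5-fold. Scripts were tested on simulated data. Intervals are 95% Clopper-Pearson and a count of 0 was given a floor of 3 counts; both cover counting error only. Alternatives were other scalings, filters, sample sets and thresholds, DESeq2 1.42.0, a replicate block, leaving out each library, and, chosen after the data were seen, leaving out satellite regions.

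Named were the 10 largest rises, the 5 highest levels, the 3 largest falls and the 3 largest differences of each direct comparison, the 10 genes with the most raised regions, the 10 largest RNA rises and falls near them, and up to 4 members of each gene list by GR level. Other lowered regions, the 3 promoters, Ppargc1a, Foxo1, Irs2, Ahr and regions at the threshold were named after their values were seen. Members and lists were chosen with earlier results of these data known. GRE instances come from the study's supplementary motif list, held here in part, and promoters from RefSeq (GRCr8).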

Additional observations from a re-analysis of the deposited data

How the results depend on the processing

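The 2702 raised regions became 57 with libraries centred on their medians and 417 after quantile normalization. When regions under the median of mean values were left out, 1723 of the 1990 regions still tested were raised and 0 lowered. The 1976 regions changed between CONS_180 and NADIR_180 became 0 when centred, 169 after quantile normalization, 961 at an adjusted p below 0.01, and 949 to 1983 when 1 library was left out (949 and 1053 without CONS_180 replicate 1 and 2, 1238 without NADIR_180 replicate 2). Against CONS_140 the count of 0 became 1 when centred, 2 after quantile normalization, and 0 to 57 when 1 library was left out (57 without CONS_140 replicate 25). The RNA-raised share near raised regions, 19.8%, was 23.3% with no fold threshold, 23.2% within 10 kb, 53.3% (16 genes) with centred GR libraries, and 17.3% to 21.1% when 1 RNA library was left out; the lowered share, 6.98%, was 9.08% with no fold threshold, 0% with centred GR libraries, and 5.31% to 6.90% when 1 RNA library was left out. The RF00001 region reversed to -0.32 when centred. Of the values for the RNA of named genes and for the 21 regions named by size under the alternatives, 723 kept their direction and call, 50 lost the call and 1 reversed. Of the 31 regions named for gene lists, 21 were not called when centred and 12 after quantile normalization, and 29 were called whichever library was left out. None of the 9 lowered regions outside the 3 largest falls was called in all of those fits. The causes were not tested beyond each setting's own construction.

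Replicate numbers did not pair the samples (correlations of deviations of -0.0265 to 0.0511), and with a replicate block 2050 regions differed from NADIR_180, 0 from PEAK_140 and 1307 genes in RNA, with RNA-raised and RNA-lowered shares of 20.3% and 7.12%. Having 2 libraries a group and floor values in VEH limit the precision of GR fold changes.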

Other observations

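Elongating RNA polymerase II (pSer2 Pol2 ChIP-Seq, log2 values per gene as deposited, 2 libraries a group) was read beside the CONS_180 sites as a description with no test. Over 16262 genes with a value the median difference between CONS_180 and VEH was 0.01. For the 255 genes nearest a raised GR region whose RNA was raised, the median was 0.75, and in 64.7% of them both CONS_180 values lay above both VEH values, against 9.56% of all genes. For the 84 with lowered RNA the median was -0.60, and in 57.1% both CONS_180 values lay below both VEH values, against 4.78% of all genes. The 1070 genes nearest a raised GR region with no RNA call had a median of 0.01, with both CONS_180 values above both VEH values in 17.5% and below both in 8.13%.

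Single genes followed the same lines. Zbtb16 read 3.96 and 2.84 in VEH and 9.53 and 9.13 at CONS_180, and Etnppl 4.71 and 2.97 against 9.22 and 9.24. Got1 read 9.0 and 8.75 against 10.71 and 10.47. Inhba read 6.70 and 6.27 against 5.27 and 5.23, and Nrep 9.42 and 9.0 against 8.21 and 7.84. Scd, whose RNA fell, read 6.10 and 5.82 in VEH and 6.45 and 6.30 at CONS_180, which is not lower. Alb read 12.52 and 12.77 against 13.12 and 13.27 with no RNA call. For Lpin1 the deposited row read here lay near its floor in all 4 libraries, at 1.34 and 1.34 against 1.40 and 1.74. The RNA rise was large, and the paper reports Pol2 on Lpin1 raised at both times of constant CORT. This row therefore does not show that elongating Pol2 was absent from the gene, and why it differs was not tested.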
